A study of Mus musculus with 2 samples.

Results

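Glycolysis is the cytosolic pathway that splits glucose to pyruvate, and the pentose phosphate pathway branches from its early steps to supply NADPH and ribose. Most steps of glycolysis are carried out by 1 of several isoenzymes, which are encoded by separate genes and differ in regulation and in the tissues that use them. Macrophages depend on glycolysis when they are activated or short of oxygen, and the transcription factor HIF-1 is known to induce many of its genes. The names of the transporters, enzymes and regulators of these pathways formed a list of 37, in which pyruvate kinase M stood under 2 symbols. The deposited files held 36 of them (pyruvate kinase as Pkm), each on 1 line, out of 22886 genes.

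The series holds 2 RNA sequencing libraries of polyA RNA, 1 per group, from cells that the labels call aerobic tumor cells, sorted by flow cytometry from subcutaneous Lewis lung carcinoma (LLC) tumors of wild type C57BL/6 mice. LLC is a transplanted mouse lung tumor line. The mice of the vehicle group received vehicle and those of the clodronate group received clodronate, a compound that kills phagocytes when it is given in liposomes. The labels give no dose, time, age, number of mice or sorting gate, and a growth protocol among them names EML cells, a blood progenitor line, which conflicts with the tissue label.

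Values are RPKM, that is reads scaled by transcript length and sequencing depth, so levels of different genes can be set side by side. Differences are log2 ratios of clodronate to vehicle after 1 was added to both RPKM values, and folds are on the same scale. Where 2 values follow each other, the vehicle library comes first. With 1 library per group no difference has a replicate check, no p-value is given, and effects of the injection, the animals, the sort and the library preparation cannot be told apart. The RPKM of low loci, multiplied by transcript length less a fitted offset, fell mostly on whole steps. The offset was 195 nt for the vehicle and 185 nt for the clodronate library. From these steps, depths of about 13600000 reads for the vehicle and 11100000 reads for the clodronate library were estimated. Estimated reads and their 95% intervals (exact, from the binomial split of the reads between the libraries) cover counting error only. All 10 macrophage markers examined had at least 44.5 RPKM in both libraries, up to 11189 RPKM for Lyz2, whereas of 7 epithelial or carcinoma markers Epcam, Krt19 and Cldn4 were listed at 0 in both and the highest reached 6.44 RPKM. Fibroblast markers reached 77.3 RPKM (Dcn, with vehicle), neutrophil markers 26.4 RPKM, and T and NK cell markers 11.1 RPKM (Cd2, with clodronate). Endothelial markers reached 3.33 RPKM and blood progenitor markers 2.60 RPKM. By these markers macrophage RNA was abundant in both libraries, although the labels call the cells tumor cells. Of the 10 macrophage markers 6 were higher and 4 lower with clodronate, with a median log2 ratio of 0.03.

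The promoters of the members were read beside the values because HIF-1 binds the core letters ACGTG or GCGTG. Of the 36 members 35 had a promoter in RefSeq (GRCm38.p6), with 52 start sites among them. At least 1 match to these letters on either strand, overlapping matches counted each, lay in the 250 bases before a start for 31 of the 35, or 88.6%. The same held for 41.5% of all 27025 genes in the table and for 62.2% of 8366 genes in the table whose RPKM averaged 1 or more. Counted by start, 41 of the 52 windows of the members held a match (78.8%), against 38.6% of all 32851 starts. Base composition of the windows was not matched between members and other genes. Of the 52 windows 22 held a run of at least 25 bases of a GENCODE transcript of the same gene, so these were not wholly upstream of transcription, and 24 of the other 30 held a match. A match is a description of letters and not a bound site. The letters were present in 17 of 20 members with a log2 ratio above 0 and in 13 of 14 with a log2 ratio below 0. Windows of Hk2, Hk3 and Ldha, which held no such run, are shown, 5′ to 3′ in the direction of the gene, with matches in capitals (CACGT and CACGC are the same letters read on the other strand). Hk2 and Hk3 are shown because these hexokinases differed in opposite directions, and Ldha (the start with the lower coordinate of 2) because it had the most matches.
Hk2, chr6:82774455-82774704 on the minus strand: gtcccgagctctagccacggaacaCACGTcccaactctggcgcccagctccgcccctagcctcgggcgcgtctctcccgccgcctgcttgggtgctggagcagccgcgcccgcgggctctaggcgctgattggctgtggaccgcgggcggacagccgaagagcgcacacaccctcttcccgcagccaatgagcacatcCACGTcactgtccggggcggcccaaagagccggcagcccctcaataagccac
Hk3, chr13:55021386-55021635 on the minus strand: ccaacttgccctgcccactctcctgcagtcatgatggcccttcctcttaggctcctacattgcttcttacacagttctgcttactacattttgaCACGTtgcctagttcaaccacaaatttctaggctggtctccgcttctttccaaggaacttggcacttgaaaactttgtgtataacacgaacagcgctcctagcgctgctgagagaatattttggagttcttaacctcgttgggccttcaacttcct
Ldha, chr7:46845554-46845803 on the plus strand: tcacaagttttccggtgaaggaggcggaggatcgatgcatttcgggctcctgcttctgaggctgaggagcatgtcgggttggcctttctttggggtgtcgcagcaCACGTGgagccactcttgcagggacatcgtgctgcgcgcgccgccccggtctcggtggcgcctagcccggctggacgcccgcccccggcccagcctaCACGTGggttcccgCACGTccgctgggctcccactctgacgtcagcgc
The window of Ldha held 5 matches, 4 of which come from a pair of CACGTG letters read on both strands. Hk2 held 2 and Hk3 1.

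Most enzymes of the main path of glycolysis had higher RPKM in the clodronate library, by small amounts, while transporters and regulators were split. Higher were 6 of 10 hexose phase enzymes, 6 of 7 triose phase genes and 1 of 2 lactate dehydrogenases (51.6% of all genes kept). Of the transporters 2 of 5 were higher, and of the regulators kept 2 of 6. The members summed to 4469 RPKM with vehicle and 5786 RPKM with clodronate, which is 0.743% and 0.971% of all RPKM. Of the 35 members that averaged 1 RPKM or more, 21 had a log2 ratio above 0, against 51.6% of all 10982 genes kept by that filter. The median log2 ratio of the members was 0.31, and that of all genes kept was 0.02. In bulk RNA, fewer cells of a type and less RNA per cell cannot be told apart. Log2 ratios in these libraries moved with base composition, from a median of -0.24 in the tenth of genes with the lowest GC content to 0.29 in the highest, and the members had a median GC content of 53.8% against 50.2% for all genes kept. With the trends of GC content and transcript length subtracted, the median of the members was 0.17, and 35 of 35 members kept their direction.

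The differences were modest in size. At least 1.5-fold higher were 5 members (16.6% of all genes kept) and at least 1.5-fold lower were 4 (16.3% of all genes kept). The former were Bpgm, Hk3, Eno1, Pkm and G6pdx, and the latter Aldoc, Pfkm, Slc2a6 and Ldhb. With GC content and length corrected, Pkm at 0.56 and G6pdx at 0.57 on the log2 scale fell short of 1.5-fold, which left 3 higher, and 4 were lower. At least 2-fold higher were 2 (6.95% of all genes kept), namely Bpgm and Hk3, and at least 2-fold lower were 2 (6.77% of all genes kept), namely Aldoc and Pfkm. With the same correction these counts were 1 higher and 3 lower, since Hk3 fell short of 2-fold and Slc2a6 passed it. At least 3-fold higher were 0 members (2.86% of all genes kept) and at least 3-fold lower were 0 (2.32% of all genes kept). These shares of members lie near or below those of all genes. Bpgm, at 2.98-fold higher, lay just short of the 3-fold limit, and passed it with a smaller pseudocount, with RPKM rescaled to a common total, and with GC content and length corrected. Among the 11 members averaging 100 RPKM or more, 10 had a log2 ratio above 0, against 46.2% of the 823 genes at that level. Of these 11, 2 were at least 1.5-fold higher (8.26% of the 823 genes) and 0 at least 1.5-fold lower (12.9% of the 823 genes). Their median log2 ratio was 0.35, beside -0.05 for the 823 genes.

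**Figure D1:**
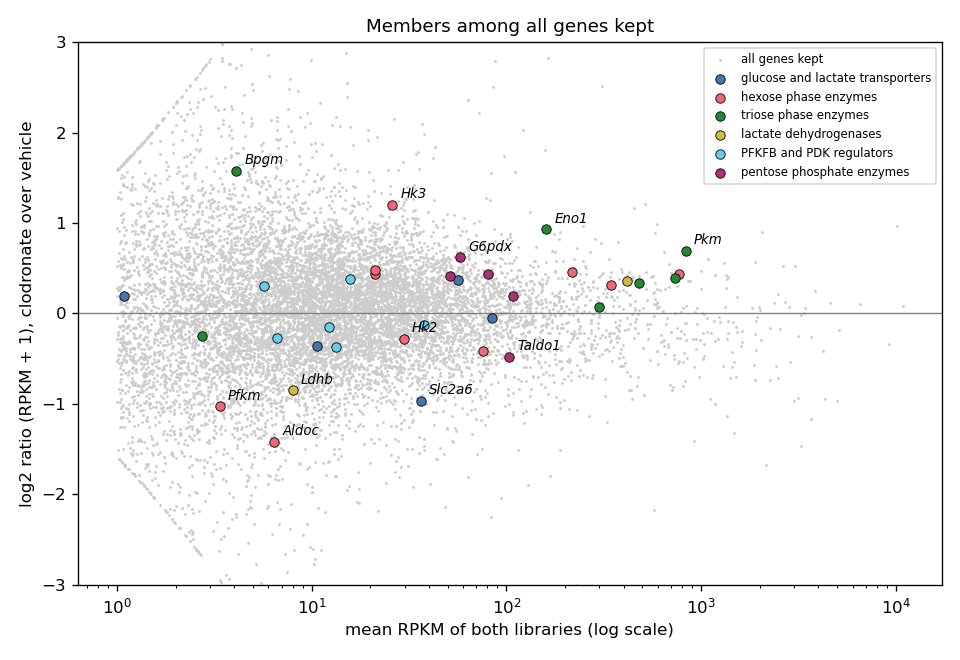
Each grey point is 1 of 10982 genes averaging 1 RPKM or more, with the mean RPKM on a log axis and the log2 ratio of clodronate over vehicle on the vertical axis, where 78 genes lie beyond the limits of 3. Colored points are the 35 members by role, and those averaging 100 RPKM or more lie above 0 except Taldo1.

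Estimated reads behind the members ranged from 35 for Pdk4 to 16023 for Pkm in the vehicle library and from 6 to 21183 for the same genes in the clodronate library. For 10 members whose transcripts differ in length, the shortest was used, which widens the interval. The counting interval of the log2 ratio without pseudocount lay above 0 for 20 members, below 0 for 10, and included 0 for Slc2a1, Slc2a3, Eno2, Pfkfb2, Pfkfb3 and Pdk3. The same count was not made over all genes. These numbers therefore describe the reads behind each member and do not set the members apart from other genes. With the longest transcript, the intervals of Pfkfb2 and Pfkfb3 ran from -0.60 to -0.04 and from -0.22 to -0.04, so these depend on the length assumed. The difference of the other 4 was not detectable at this depth.

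**Figure D2:**
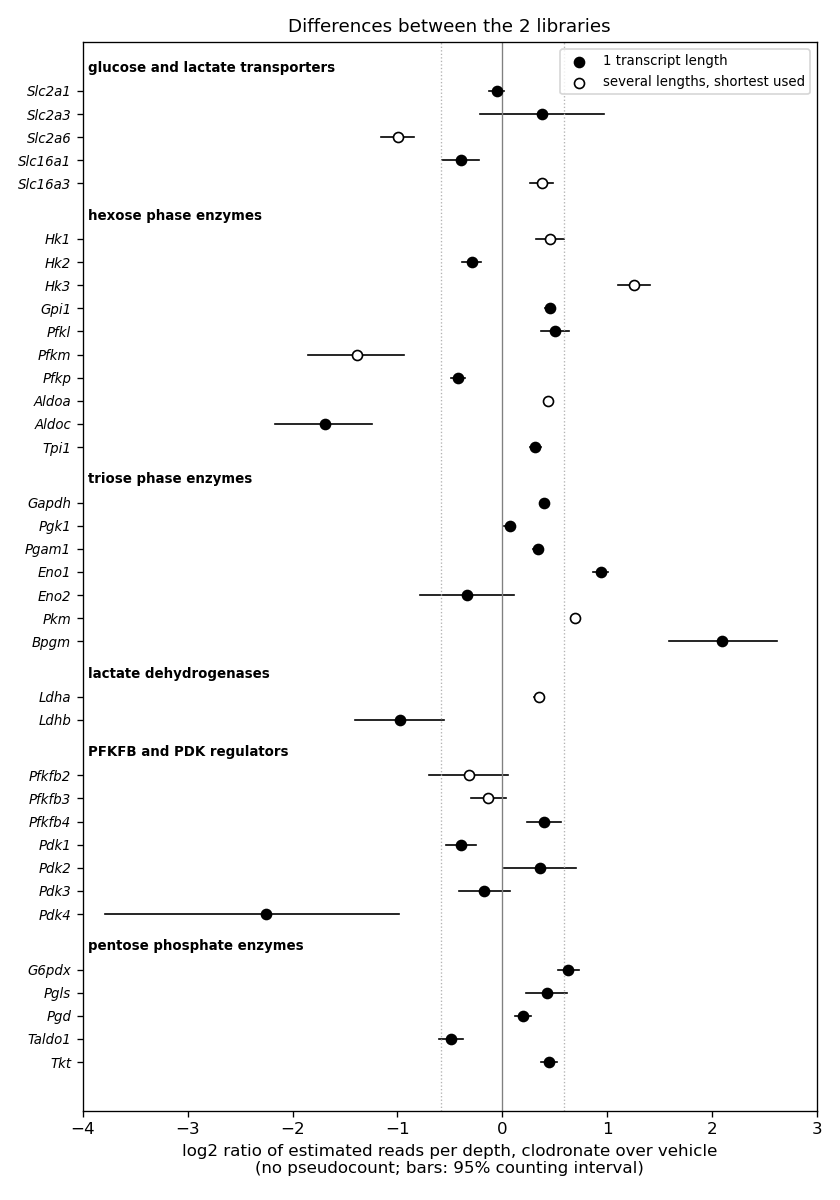
Points give the log2 ratio of estimated reads per depth, clodronate over vehicle and without pseudocount, for the 36 members by role, bars give 95% counting intervals, and dotted lines mark 1.5-fold. Open points are genes with transcripts of several lengths, of which the shortest was used. Bpgm and Hk3 lie farthest to the right, and Pdk4, Aldoc and Pfkm farthest to the left.

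Glucose enters cells through transporters of the Slc2a family, and lactate crosses the membrane through those of the Slc16a family. Slc2a1, the widely expressed glucose transporter GLUT1, had 86.2 RPKM with vehicle and 83.1 RPKM with clodronate. Its log2 ratio of -0.05 had a counting interval from -0.12 to 0.02 without pseudocount, and was -0.22 with GC content and length corrected. Slc2a6, a transporter of leukocytes and other cells found mainly on internal membranes, had 48.5 RPKM with vehicle and 24.3 RPKM with clodronate. It was 1.96-fold lower, on estimates of 1120 and 460 reads, and lies at chr2:26876884-26883518 of the files (mm9). Slc2a3, the glucose transporter GLUT3, was near the lower limit with 0.947 and 1.23 RPKM. Slc2a1 made up 63.5% of the summed RPKM of these glucose transporters in the vehicle and 76.5% in the clodronate library, and Slc2a6 35.8% and 22.4%. Slc16a3 encodes MCT4, which exports lactate from glycolytic cells, and had 49.1 and 63.7 RPKM, with a log2 ratio of 0.37, or 0.04 with GC content and length corrected. Slc16a1, which encodes MCT1, had 12.1 and 9.20 RPKM, with a log2 ratio of -0.36. The median log2 ratio of the 5 transporters was -0.05.

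The hexokinases, which trap glucose as glucose 6-phosphate, ranked differently in the libraries. Hk2, the inducible form of muscle, fat and tumors, was the highest of them in the vehicle library with 32.7 RPKM and had 26.7 RPKM in the clodronate library. Hk3, the form typical of myeloid cells, had 15.3 RPKM with vehicle and 36.5 RPKM with clodronate, where it was the highest. Hk1, the form of most tissues, had 17.8 and 24.4 RPKM. Hk3 was 2.30-fold higher, with a counting interval of its log2 ratio from 1.11 to 1.41 on estimates of 562 and 1097 reads. The interval for Hk2 ran from -0.39 to -0.20. The share of Hk2 among the 3 was 49.7% in the vehicle and 30.5% in the clodronate library, that of Hk3 was 23.2% and 41.7%, and that of Hk1 27.1% and 27.8%. With GC content and length corrected, the log2 ratio of Hk3 was 0.95 instead of 1.20 and that of Hk2 was -0.39 instead of -0.28. The locus of Hk3, chr13:55050792-55122746, overlaps that of Unc5a, which had 0.462 and 0.849 RPKM. That of Hk1 overlaps Hk1os, its antisense RNA, which had 1.44 RPKM in the vehicle library and was listed at 0 in the clodronate library. Hk2 lies at chr6:82675020-82724448 and overlaps no other locus of the files.

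**Figure D3:**
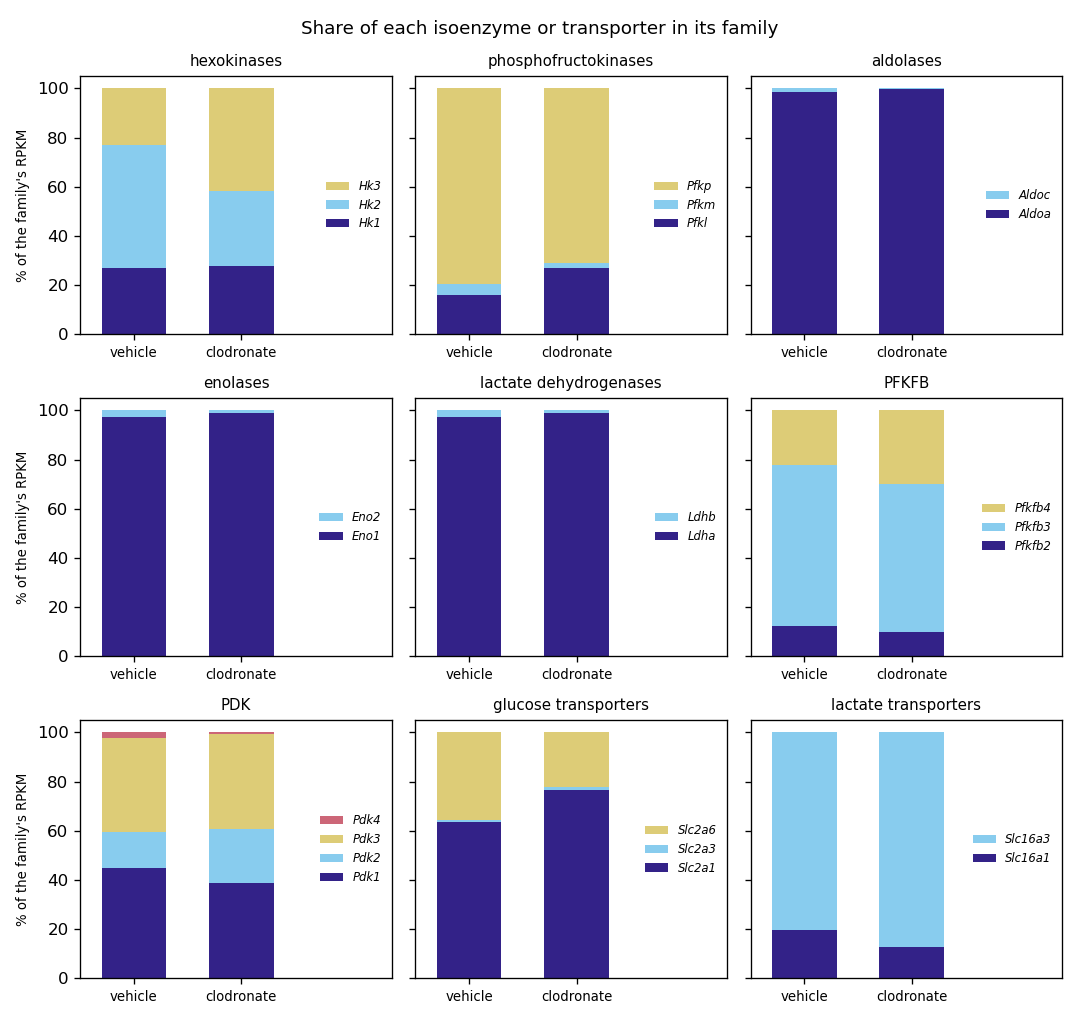
Stacked bars give, for each family and library, the percent of the family's summed RPKM held by each gene, from 0 to 100. Hk3 takes 23.2% of the hexokinases in the vehicle and 41.7% in the clodronate library, while Aldoa, Eno1 and Ldha hold more than 97% of their families in both.

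Phosphofructokinase commits sugar to glycolysis, and its forms also differed in direction. Pfkp, the platelet form, had 86.6 RPKM with vehicle and 64.6 RPKM with clodronate. Pfkl, the liver form, had 17.5 and 24.7 RPKM, and Pfkm, the muscle form, had 4.86 and 1.87 RPKM. Pfkp held 79.5% of the family in the vehicle and 70.8% in the clodronate library, and Pfkl 16.0% and 27.1%. The counting intervals lay below 0 for Pfkp, from -0.49 to -0.36, and above 0 for Pfkl, from 0.37 to 0.64. With GC content and length corrected, the log2 ratio of Pfkl was 0.23 instead of 0.48. That of Pfkp was -0.47 instead of -0.42. The locus of Pfkp overlaps that of Pitrm1, with 17.3 and 20.1 RPKM, and that of Pfkm overlaps Senp1, with 6.84 and 7.60 RPKM. The family as a whole summed to 109 RPKM with vehicle and 91.2 RPKM with clodronate.

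The other enzymes of the hexose phase were higher in the clodronate library, apart from Aldoc. Gpi1, which turns glucose 6-phosphate into fructose 6-phosphate, had 183 and 251 RPKM. Aldoa, the aldolase that splits fructose 1,6-bisphosphate in most tissues, had 652 RPKM in the vehicle library, where it was the highest member, and 884 RPKM in the clodronate library. Tpi1, which interconverts the triose phosphates, had 307 and 381 RPKM, and its locus overlaps Spsb2, with 11.005 and 7.47 RPKM. The log2 ratios of these 3 lay between 0.31 and 0.46. Aldoc, the aldolase of brain, had 9.78 RPKM with vehicle and 3.02 RPKM with clodronate, the lowest log2 ratio of the members kept at -1.42. It rested on estimates of 201 and 51 reads, with a counting interval from -2.16 to -1.24 without pseudocount. The median log2 ratio of the 10 enzymes of the hexose phase was 0.37, and 0.20 with GC content and length corrected.

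The triose phase is the part of glycolysis that yields ATP. Its group of 7 genes, Bpgm included, had the largest summed level, with 2099 RPKM with vehicle and 2923 RPKM with clodronate. Pkm, which forms pyruvate, had 636 and 1028 RPKM and was the member with the highest level in the clodronate library, at rank 91 of all genes there against 151 in the vehicle library. It was 1.61-fold higher, at chr9:59504174-59527182. The files give 1 value for the gene, so its M1 and M2 transcripts cannot be told apart. Gapdh, which makes NADH at the start of this phase, had 634 and 835 RPKM, Pgam1, which shifts the phosphate of phosphoglycerate, had 423 and 535 RPKM, and their log2 ratios were 0.40 and 0.34. Pgk1, the enzyme of the step that makes the first ATP of this phase, had 292 and 307 RPKM, with a log2 ratio of 0.07. Stretches of at least 200 nt at 95% identity or more are shared by Gapdh with 78 other genes, 75 of them pseudogenes, and by Pkm, Pgk1 and Pgam1 with 1 to 4 genes, so the reads of these members are uncertain. The median log2 ratio of the 7 genes was 0.40, and 6 of them were higher (51.6% of all genes kept).

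Eno1, the widespread enolase, had 109 RPKM with vehicle and 210 RPKM with clodronate, 1.91-fold higher. Its locus is chr4:149611305-149622982, and a near-identical gene, Eno1b, shares 1736 nt with it at up to 99.5% identity. Eno1b had 21.04 and 7.70 RPKM, in the opposite direction. Summed, both genes had 130 and 217 RPKM, with a log2 ratio of 0.73 instead of 0.93. How shared reads were assigned to these genes is not given in the sources used here. Eno2, the neuronal enolase, had 3.05 and 2.42 RPKM. Bpgm, which makes 2,3-bisphosphoglycerate, best known from red blood cells, had 1.56 RPKM with vehicle and 6.63 RPKM with clodronate. Its locus is chr6:34426355-34455610, it rested on estimates of 43 and 150 reads, and its interval ran from 1.60 to 2.62 without pseudocount. Alas2, the heme synthesis enzyme of red blood cell precursors, was listed at 0 in both libraries.

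Lactate dehydrogenase interconverts pyruvate and lactate. Ldha, the form favored in glycolytic cells, had 363 and 465 RPKM, and Ldhb, the form of heart, had 10.5 and 5.40 RPKM. The interval of the log2 ratio without pseudocount ran from 0.31 to 0.40 for Ldha and from -1.41 to -0.55 for Ldhb. Gpi1, Tpi1, Ldha, Ldhb and Pfkfb2 also share such stretches with 1 to 4 other genes. Pfkp shares 748 nt with Pitrm1, whose locus overlaps its own, so this is not a separate copy. Ldha held 97.2% of both in the vehicle and 98.9% in the clodronate library.

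The PFKFB enzymes set the level of fructose 2,6-bisphosphate, which activates phosphofructokinase, and the PDK kinases switch off pyruvate dehydrogenase. Pfkfb3, the form with the highest kinase relative to phosphatase activity, was the highest regulator with 39.4 RPKM with vehicle and 35.9 RPKM with clodronate. Pfkfb4 had 13.5 and 17.8 RPKM, with a counting interval from 0.24 to 0.56. Its log2 ratio was 0.38, or 0.22 with GC content and length corrected. Pfkfb2 had 7.35 and 5.89 RPKM, with a locus that overlaps Yod1, at 2.18 and 3.31 RPKM. Pdk1, a known HIF-1 target, had 15.2 and 11.6 RPKM, and its interval ran from -0.54 to -0.25. Pdk3 had 13.0 and 11.6 RPKM, and Pdk2 had 5.0 and 6.43 RPKM. Pdk4, the form induced by fasting and fatty acids, had 0.781 and 0.164 RPKM and was the only member below a mean of 1 RPKM. It rested on estimates of 35 and 6 reads. The median log2 ratio of the 6 regulators kept was -0.14, and 2 of the 6 were higher (51.6% of all genes kept). Hif1a itself had 56.6 RPKM with vehicle and 57.5 RPKM with clodronate. Epas1, another HIF subunit, had 4.31 and 2.62 RPKM, with a log2 ratio of -0.55.

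**Figure D4:**
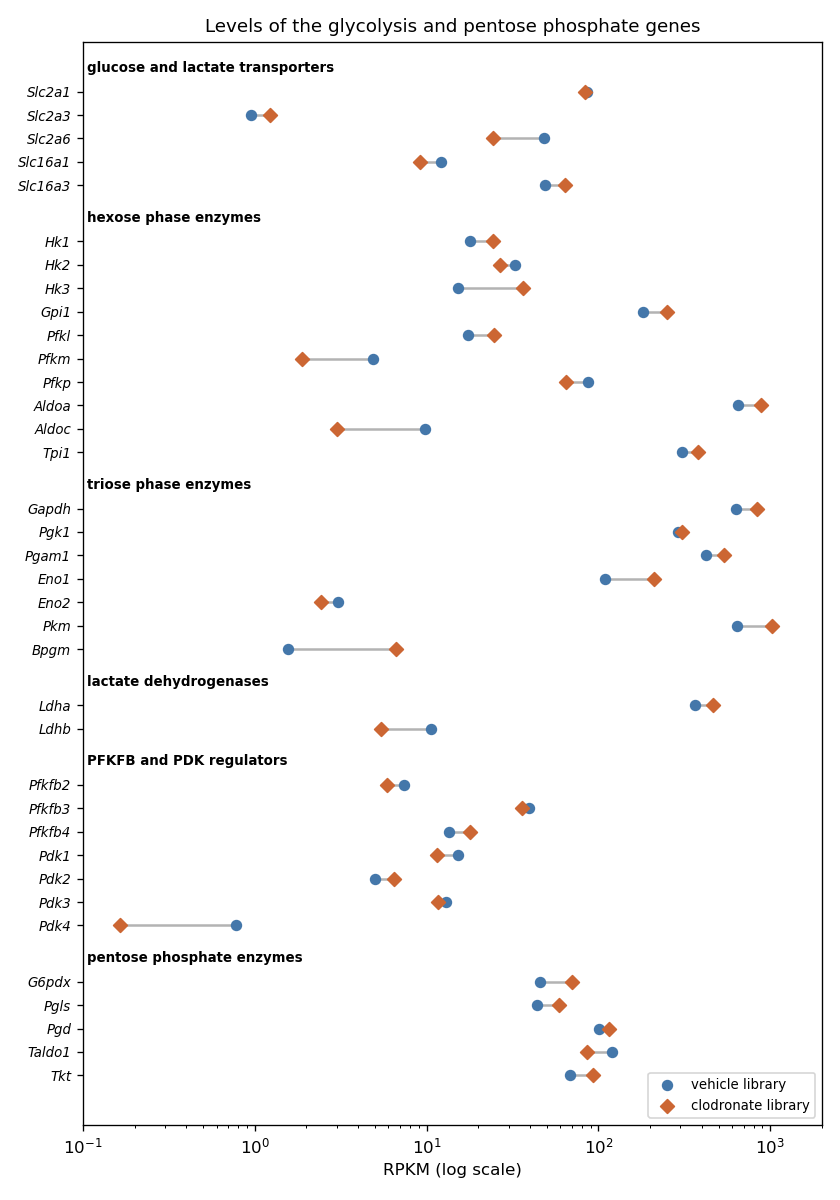
RPKM of the 36 members in the vehicle library (circles) and the clodronate library (diamonds) on a log axis, by role and joined by a line. Levels run from 0.164 RPKM for Pdk4 to 1028 RPKM for Pkm.

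Of the pentose phosphate enzymes among the members 4 of 5 had a log2 ratio above 0 (51.6% of all genes kept). Their median was 0.42, or 0.27 with GC content and length corrected. G6pdx, the entry enzyme that makes NADPH, had 45.6 RPKM with vehicle and 70.6 RPKM with clodronate, 1.54-fold higher. Pgls, the lactonase of the next step, had 43.9 and 59.0 RPKM, and Pgd, which makes the second NADPH, had 100.3 and 115 RPKM. In the non-oxidative branch, which shuffles sugars back to glycolysis, the members Tkt and Taldo1 went apart. Tkt, transketolase, had 68.0 and 92.5 RPKM, with a counting interval from 0.37 to 0.52. Its log2 ratio was 0.44, or 0.27 with GC content and length corrected. Taldo1, transaldolase, had 120 and 85.6 RPKM, with an interval from -0.60 to -0.37. Rpia and Rpe, enzymes of the same branch from the wider list below, had log2 ratios of -0.50 and -0.15. The interval of Rpe, from -0.73 to 0.29, included 0. Of the 5 pentose phosphate genes kept from that list, 2 were higher (51.6% of all genes kept) and 3 lower. The locus of G6pdx overlaps that of Ikbkg, which had 5.60 and 4.78 RPKM.

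A wider list of 38 genes of the same or adjoining pathways was split in direction. The genes were chosen for their roles, apart from Pgam5, a relative of Pgam1 by sequence. All 38 were found, 8 of them were listed at 0 in both libraries, among them Pklr and Fbp1, which serve the liver, and 23 averaged 1 RPKM or more. Of the 23, 9 were higher, against 51.6% of all genes kept, and 14 lower, with a median log2 ratio of -0.16. At least 1.5-fold higher were 3 (16.6% of all genes kept) and lower 7 (16.3% of all genes kept). Among the 7 genes that bring pyruvate into mitochondria and oxidize it, 2 were higher (51.6% of all genes kept) and 5 lower. Mpc1 and Mpc2, the subunits of the mitochondrial pyruvate carrier, had 62.5 and 33.4 RPKM with vehicle and 43.8 and 21.6 RPKM with clodronate. Pdha1, of pyruvate dehydrogenase, had 32.6 and 23.5 RPKM and Pdp2, a phosphatase that activates that complex, had 7.80 and 2.46 RPKM, whereas Dlat had 7.08 and 12.6 RPKM. Prps1, which turns ribose 5-phosphate into the precursor of nucleotides, had 3.85 and 9.53 RPKM. The largest difference downward was that of Pgam5, a mitochondrial phosphatase related to Pgam1 by sequence, with 48.1 and 14.2 RPKM. Pfkfb1 was at 2.05 RPKM with clodronate and listed at 0 with vehicle. Bsg, the partner of MCT1 and MCT4 at the membrane, had 86.6 and 103.9 RPKM.

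Other gene groups moved with these libraries. Of 7 markers of dividing cells 6 were higher in the clodronate library (51.6% of all genes kept), with summed levels of 222 and 309 RPKM. Among the 6 was Mki67 with 16.7 and 38.4 RPKM, while Pcna had 176 and 167 RPKM. Of 7 fibroblast markers kept 6 were lower, with 157 RPKM with vehicle and 76.4 RPKM with clodronate for all 8. Of all 10982 genes kept 5318 were lower. The 10 macrophage markers summed to 22374 and 22993 RPKM, of which Lyz2 alone held 10534 and 11189 RPKM. Of these markers 6 were higher and 4 lower. Sums of other lists were 15.0 and 10.97 RPKM for epithelial, 43.1 and 45.1 RPKM for neutrophil and 2.37 and 7.40 RPKM for endothelial markers. They were 3.23 and 13.1 RPKM for T and NK cell and 5.41 and 2.85 RPKM for blood progenitor markers. S100a9, Tek, Cd3e and Gata1 were at 0 in both libraries. The T and NK cell sum rested mostly on Cd2, with 2.39 and 11.1 RPKM, and the others of that list stayed at or below 1.02 RPKM. Of 3 neutrophil markers kept S100a8 was higher, with 12.7 and 23.1 RPKM, and 2 were lower. The part of any of these groups in the differences of the glycolytic genes was not tested.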

How the data were processed

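RNA of 2 libraries, 1 from the vehicle and 1 from the clodronate group, was measured by sequencing. The authors deposited RPKM per locus. The submitters' processing notes name CASAVA 1.8.2, TopHat2 2.0.9, Bowtie 0.12.9, Cufflinks 2.2.1, Cuffdiff and the build mm9, without their order. The annotation release, strand setting and read totals are not given in the sources used here, and the publication named with the series describes another experiment. Loci of the same symbol were summed (23170 loci, 22886 genes). Where a symbol had become a number (26 loci) the RefSeq accession stood in.

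Log2 ratios used a pseudocount of 1, which understates changes of low genes, and genes averaging 1 RPKM or more were kept. Members and lists were chosen with earlier results of these data known. All members found are named, with a wider list and markers chosen for their roles, some of which are not reported here. Depth and the length offset were estimated together on loci with 1 transcript of at least 1000 nt (GENCODE M21, matched by accession), fitted on alternate loci. In the others, 77.5% of 316 vehicle and 72.7% of 561 clodronate values of up to 8 reads lay within 0.1 of a whole number, where 20% would if spread evenly. The vehicle library had 1.23 times the depth of the clodronate library. Near-identical stretches in other genes (blastn 2.17.0, at least 200 nt at 95% identity) were found for 11 members, and 7 members overlap another locus. Pfkp is in both counts through the same gene, Pitrm1. Strand is unknown, so reads may be shared among these. Promoters came from RefSeq on GRCm38.p6 and were not combined with the mm9 loci. Versions were scipy 1.17.1, pandas 2.3.3, numpy 2.4.6 and Python 3.11.15.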

Additional observations from a re-analysis of the deposited data

How the results depend on the processing

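No paired analysis was possible because each group has 1 library. The direction of each of the 35 members kept was the same under a pseudocount of 0.1, centring, upper-quartile scaling, rescaling of RPKM to a common total and subtraction of GC and length trends. No filter, the highest row of a symbol and leaving out small RNA genes cannot change a member's ratio here. A minimum mean of 5 RPKM left 31 members, 19 of them above 0. The median of the members ran from 0.17, with those trends subtracted, to 0.34, with a pseudocount of 0.1. The correction also moved the medians of the transporters to -0.22, of the hexose phase enzymes to 0.20 and of the pentose phosphate enzymes to 0.27, and it covered 98.7% of the genes kept. With a minimum of 5 RPKM the transporter median was -0.21, since Slc2a3 drops out. The count of members at least 3-fold higher, 0 as reported, was 1 (Bpgm) with a pseudocount of 0.1, with RPKM rescaled to a common total and with the correction. The count at least 3-fold lower was 1 (Aldoc) with a pseudocount of 0.1. With the correction, 3 members instead of 5 were at least 1.5-fold higher, and 1 instead of 2 at least 2-fold higher. A minimum of 5 RPKM left 1 at least 2-fold higher and 1 lower. With limits of 2-fold and 1.5-fold, by construction, the counts were 2 and 5 higher and 2 and 4 lower. Summing Eno1 and Eno1b was chosen after seeing the data and gave a log2 ratio of 0.73. Pdk4, Bpgm, Slc2a3, Aldoc, Pfkm, Ldhb, Eno2 and Pfkfb2 rest on fewer than 100 estimated reads in at least 1 library.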
